A study of Mus musculus with 10 samples.

Results

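The smooth muscle contractile and cytoskeletal genes described here are 34 mouse genes, taken by symbol from a list of contractile filament proteins, their regulators, and the adhesion and signalling proteins of vascular smooth muscle. All 34 genes were found among the 18193 genes that have a probe set of 1 gene symbol on the array, and they were covered by 74 of 34945 such probe sets. The GeneChip mouse array used measures each transcript with probe sets, groups of short probes near the 3′ end. Of the 74 probe sets, 67 reached a signal of 100 on 4 arrays or more and were tested, so that every member gene was represented.

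Gene expression had been measured in the abdominal aorta of 4-month-old (16 weeks) female mice, 1 array per mouse. The 4 WT mice were C57BL/6 littermates. The 6 KCASP1Tg mice carried human caspase-1 under the keratin 14 promoter, which is active in keratinocytes, and such mice develop dermatitis. The labels call the tissue a dechorionated abdominal aorta, and they hold more arrays than the methods count mice, so all 10 arrays were used. The comparison asks how the aorta of mice with persistent skin inflammation differs from that of littermates.

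Arterial smooth muscle contracts when calcium and calmodulin switch on myosin light chain kinase, which phosphorylates the regulatory light chain of smooth muscle myosin. The myosin then pulls on actin filaments that carry tropomyosin, caldesmon and calponin, and the force reaches the matrix through dense plaques of vinculin, filamin, alpha-actinin and integrins. Myosin phosphatase reverses the phosphorylation. Many of these genes are switched on by serum response factor (SRF) with its coactivator myocardin, and they are turned down when smooth muscle cells leave the contractile state. SRF binds the CArG box, a motif of 10 letters that opens with a pair of C, closes with a pair of G and holds A or T between them.

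RefSeq promoter windows (GRCm38.p6, from 250 bases before to 50 bases after the start site) were at hand for 30 of the 34 genes, and a CArG box, which has the same form on both strands, was found in those of Myl9, Vcl, Ldb3 and Fhl1. These are shown because they hold the motif of the factor named above. This is 13.33% of the member genes with a window, and 1.806% of all 27025 genes with a window had one (488 genes). The windows lie at chr2:156775214-156775513 (+) for Myl9, chr14:20929148-20929447 (+) for Vcl, chr14:34588632-34588931 (-) for Ldb3 and chrX:56779433-56779732 (+) for Fhl1. They are given 5′ to 3′ on the gene's strand, with the CArG box in capitals.
Myl9: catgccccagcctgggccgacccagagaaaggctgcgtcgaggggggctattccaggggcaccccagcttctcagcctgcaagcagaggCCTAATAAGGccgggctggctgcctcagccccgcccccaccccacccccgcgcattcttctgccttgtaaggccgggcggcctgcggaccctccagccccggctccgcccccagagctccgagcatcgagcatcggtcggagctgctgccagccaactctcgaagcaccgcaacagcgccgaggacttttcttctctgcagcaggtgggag
Vcl: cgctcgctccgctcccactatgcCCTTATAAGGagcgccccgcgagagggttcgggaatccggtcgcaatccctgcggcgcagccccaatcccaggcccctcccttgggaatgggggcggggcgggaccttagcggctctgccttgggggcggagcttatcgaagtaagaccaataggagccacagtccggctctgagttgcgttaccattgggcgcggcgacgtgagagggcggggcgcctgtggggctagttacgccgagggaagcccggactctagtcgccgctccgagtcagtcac
Ldb3: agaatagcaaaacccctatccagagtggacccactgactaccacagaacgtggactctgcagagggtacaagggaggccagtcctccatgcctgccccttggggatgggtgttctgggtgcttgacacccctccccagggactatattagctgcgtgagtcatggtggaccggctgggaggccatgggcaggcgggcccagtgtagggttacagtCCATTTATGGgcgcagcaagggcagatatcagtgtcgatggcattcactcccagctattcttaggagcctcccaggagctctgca
Fhl1: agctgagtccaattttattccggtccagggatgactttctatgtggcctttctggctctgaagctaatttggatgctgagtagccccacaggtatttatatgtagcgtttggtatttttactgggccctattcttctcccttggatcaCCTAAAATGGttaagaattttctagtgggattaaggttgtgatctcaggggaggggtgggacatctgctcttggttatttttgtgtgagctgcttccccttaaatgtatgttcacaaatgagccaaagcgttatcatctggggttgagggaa
Counted from the start site, the first base of the box lay at -161 in Myl9, -227 in Vcl, -35 in Ldb3 and -102 in Fhl1. A second Ldb3 start site, whose window overlaps the first, held the same box, while the window of a second Fhl1 start site held none. No window was at hand for Tagln, Myh11, Actg2 and Myocd, so a box was not looked for in them. A match is a description of the letters in this window and not of binding. Only this exact form and this window were searched, so a missing match does not show that a gene lacks an SRF site.

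The labelled tissue fitted its defining smooth muscle markers. Myh11, Acta2, Cnn1 and Tagln had signals of at least 2453, 18138, 1164 and 7825 on every array, where the array medians were 128.6 to 155.9. All 34 genes reached a signal of 100 on all 10 arrays, a level that 54.96 to 58.36% of all probe sets reached on an array. Transcripts of other tissues were present too, and they differed between single mice. Acta1, the skeletal muscle actin, had a signal of 10916 in WT 1 and 7328 in KCASP1Tg 4, against 60.9 to 174 on the other arrays. The 15 skeletal muscle markers summed to 45128 in WT 1 and 42228 in KCASP1Tg 4, against 2573 to 8263 elsewhere. Myh6, the heart muscle myosin, had a signal of 11232 in WT 4, 5796 in KCASP1Tg 1 and 3101 in KCASP1Tg 2, against 0.859 to 161 on the others, and the 11 heart muscle markers summed to 82109, 40145 and 23295 on these 3 arrays. The liver markers summed to 137048 in WT 1 and 58624 in WT 3, against 395 to 6711 on the other arrays, with Alb as the brightest. The brightest marker of the heart muscle list was Actc1, at 17645 in WT 4, and that of the skeletal muscle list was Myl1, at 6606 in WT 1, 5037 in KCASP1Tg 4 and 6080 in WT 4.

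KCASP1Tg 4 stood apart. The 8 measured neutrophil markers, led by S100a8, summed to 493 to 677 in WT mice, 61941 in KCASP1Tg 4 and 7021 to 13836 in the other KCASP1Tg mice. The 7 measured lymphocyte markers summed to 36576 in KCASP1Tg 4 against at most 1948 in any other mouse, 22908 of it from Glycam1, a mucin of lymph node venules. Sums for adipocytes (brightest marker Fabp4), brown adipocytes (Cidea), fibroblasts (Dcn), mesothelium (Upk3b), pericytes (Abcc9) and endothelium (Vwf) were lowest in KCASP1Tg 4, at 111944, 27570, 40361, 605, 7087 and 15162, against at least 128466, 42598, 47948, 1163, 7924 and 17357 on every other array. The 4 measured Schwann cell markers, with Pmp22 the brightest, had sums that ranged from 10944 in WT 4 to 25927 in WT 2, with 15360 in KCASP1Tg 4. The part of these other tissues in the values below was not tested. Directions and medians over the gene lists below are given with and without this mouse.

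**Figure D1:**
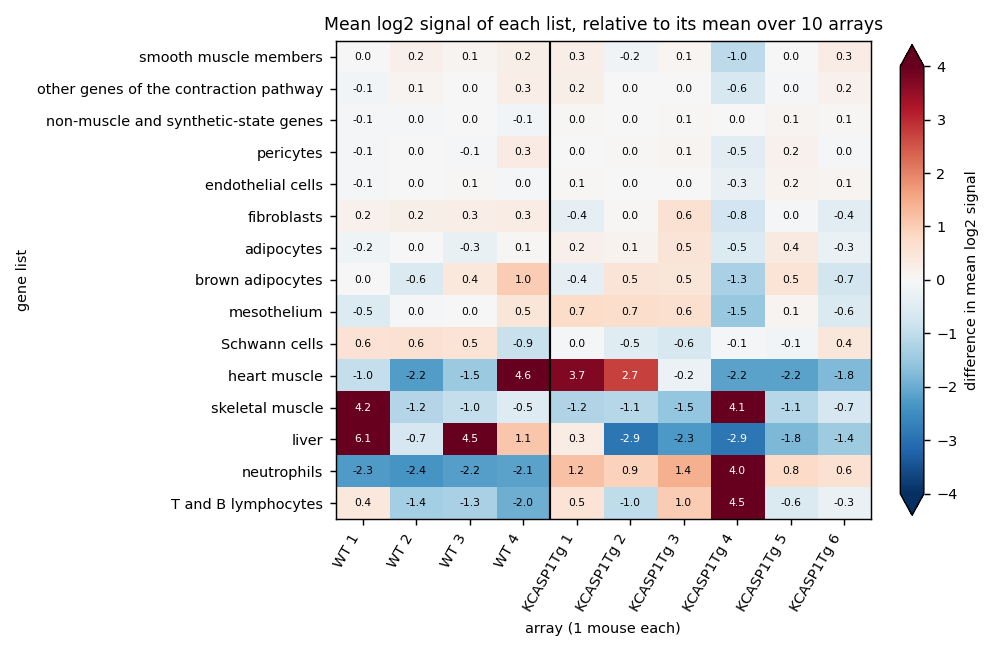
Mean log2 signal of each marker list on each of the 10 arrays, relative to the list's mean over the arrays (colour of each cell). KCASP1Tg 4 is highest for the neutrophil (11.95) and lymphocyte (11.27) lists and lowest for the smooth muscle genes, whose mean log2 signal there is 10.67.

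No smooth muscle gene passed the test between the genotypes by limma, with adjustment over all 26242 probe sets tested. Among the 67 member probe sets 0 were higher and 0 were lower, where 18 probe sets of all tested (0.0686%) were higher and 0 (0%) were lower. At an unadjusted p under 0.05, 0 member probe sets were higher and 1 was lower, that of Des, against 4.52% and 3.42% of all tested. By the exact Mann-Whitney test 1 of the 67 had an unadjusted p under 0.05 and 0 had an adjusted one, against 2008 and 0 of all 26242. Without KCASP1Tg 4, where 61 (0.236%) of 25886 probe sets were higher and 8 (0.0309%) lower, the members again gave 0 and 0. The p-values measure the spread between mice, and the number of arrays limits the precision.

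Most of the log2 fold changes were nonetheless negative, and this rested largely on 1 mouse. Of the 34 genes, each read from its brightest probe set, 32 had a negative log2 fold change (94.12%, against 49.84% of the 12295 genes tested). Their median was -0.22, with a range from -0.66 for Actg2 to 0.08 for Synm, where all genes had a median of 0.0. Without KCASP1Tg 4, 19 were negative and 15 positive, and the median was -0.03. Fewer smooth muscle cells, less RNA per cell and more RNA of other tissues in the sample cannot be told apart in RNA from whole tissue.

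The intervals show what size of change these arrays leave possible. For 22 of the 34 genes the 95% interval of the log2 fold change lay between -1 and 1, and for 33 it held 0. Without KCASP1Tg 4 the interval lay between -1 and 1 for 32 genes and between -0.5 and 0.5 for 19, and its median width went from 1.27 to 0.70.

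**Figure D2:**
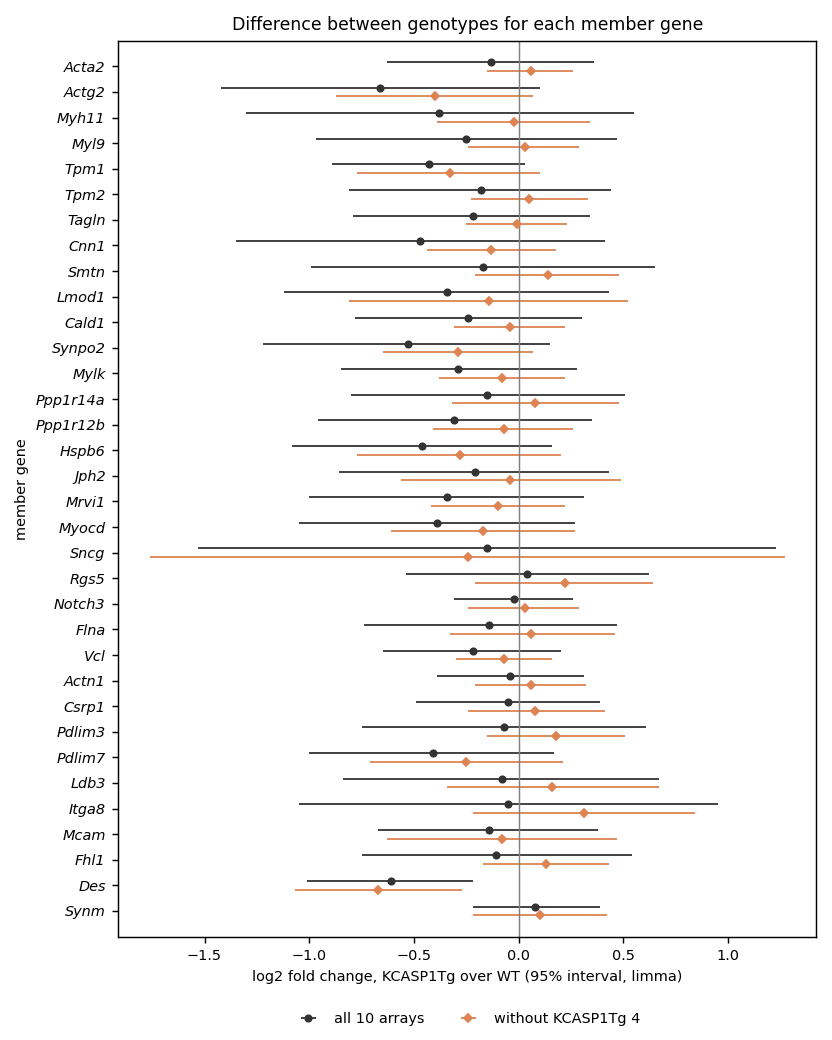
Log2 fold change (KCASP1Tg minus WT) of each of the 34 genes, grouped by role, with all 10 arrays and without KCASP1Tg 4; lines are 95% intervals from limma. Des is the gene whose interval lies below 0, from -1.01 to -0.22 over all arrays.

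KCASP1Tg 4 was the lowest of the 10 arrays for 29 of the 34 genes (85.29%), as it was for 23.05% of all genes tested. The median log2 difference from the mean of the other KCASP1Tg mice was -1.21, where that of all genes was 0.0, and 24 of the 34 genes (70.59%) were lower there by more than 1, against 4.449% of all genes. Of the markers tested, this share was 100% for mesothelium, 85.71% for brown adipocytes and 33.33% for fibroblasts. It was 14.29% for pericytes, 12.5% for adipocytes and 0% for endothelium. The mean log2 signal over the 34 genes was 11.72 to 11.93 in WT mice, 11.55 to 12.00 in the other KCASP1Tg mice and 10.67 in KCASP1Tg 4. The other KCASP1Tg mice thus spanned the range of the WT mice at both ends. As this pattern was seen in the same values, no test is given for it.

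**Figure D3:**
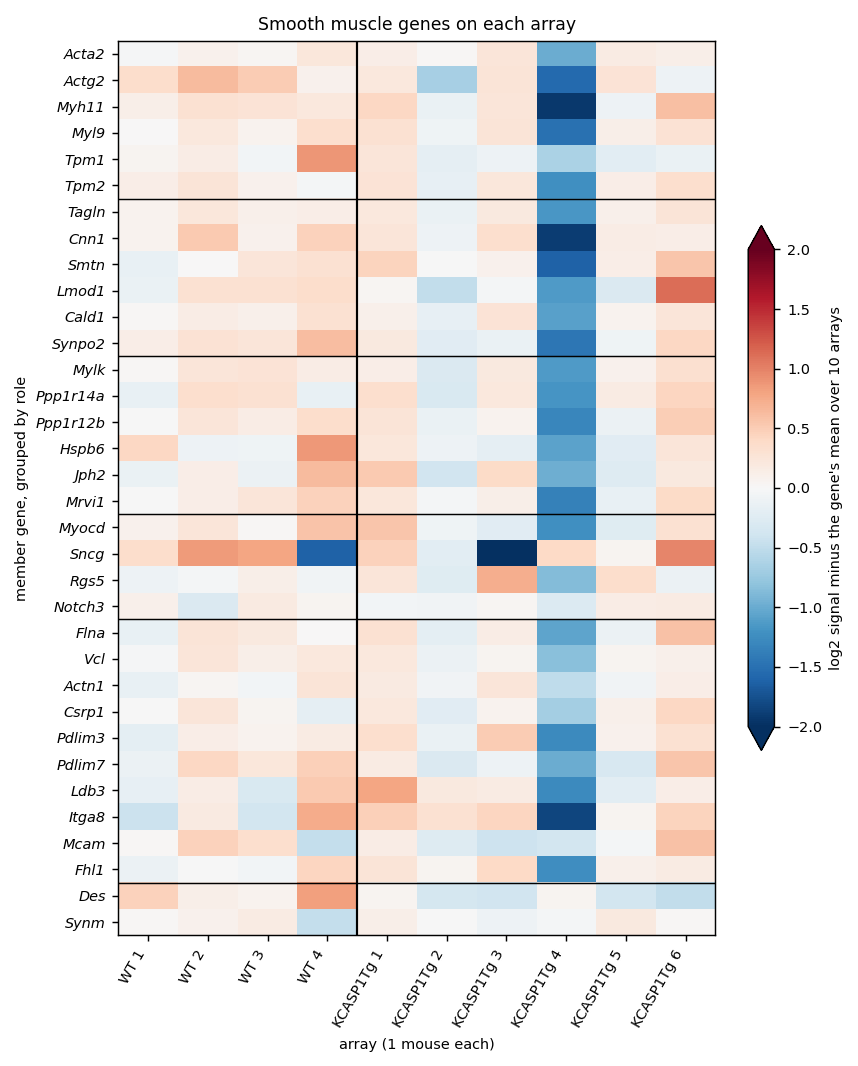
Log2 signal of each of the 34 genes (rows, by role) on each array (columns), relative to the gene's mean over the 10 arrays. The column of KCASP1Tg 4 is the lowest for 29 of the 34 genes, and the exceptions are Des, Synm, Mcam, Sncg and Notch3.

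The contractile filament genes were the lowest group in KCASP1Tg 4, with a median log2 difference of -1.47 from the other KCASP1Tg mice, and it was the lowest array for all 6 of them. Myh11, the smooth muscle myosin heavy chain and the most restricted marker of the lineage, had signals of 10100, 11534, 11225 and 10764 in WT mice and 12427, 8482, 11007, 2453, 8670 and 14068 in KCASP1Tg mice. KCASP1Tg 4 held the value of 2453, and KCASP1Tg 2 and KCASP1Tg 5 were also below every WT mouse. KCASP1Tg 6 and KCASP1Tg 1 were above every WT mouse. Its log2 fold change was -0.38 (standard error 0.42, limma's adjusted p = 0.913), and without KCASP1Tg 4 it was -0.02 (95% interval -0.39 to 0.34).

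Acta2, the smooth muscle alpha-actin, had signals of 35369, 37912, 36738 and 41902 in WT mice and 39463, 36415, 42487, 18138, 40066 and 38745 in KCASP1Tg mice. Apart from KCASP1Tg 4 the 2 groups covered nearly the same range. The log2 fold change was -0.13 (standard error 0.22), and 0.06 without that mouse (95% interval -0.15 to 0.26). Myl9, the regulatory light chain whose promoter is shown above, was 6409 in KCASP1Tg 4, while the other KCASP1Tg mice had 16977 to 22392 and WT mice 18050 to 22686. The main probe set of Tpm2, beta-tropomyosin, behaved in the same way, with 5468 in KCASP1Tg 4 against 11432 to 16148 in the other 9 mice.

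Actg2, the gamma-actin of visceral smooth muscle, had the lowest fold change of the 34. Its signals were 2175, 2665, 2428 and 1823 in WT mice and 1970, 1081, 2045, 582, 2063 and 1594 in KCASP1Tg mice, which overlapped. The difference was -0.66 on the log2 scale (standard error 0.34, adjusted p = 0.692), and -0.40 without KCASP1Tg 4 (adjusted p = 0.687). Tpm1, alpha-tropomyosin, differed by -0.43 (adjusted p = 0.666), with 11078 in WT 4 and 3882 to 7131 on the other arrays.

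**Figure D4:**
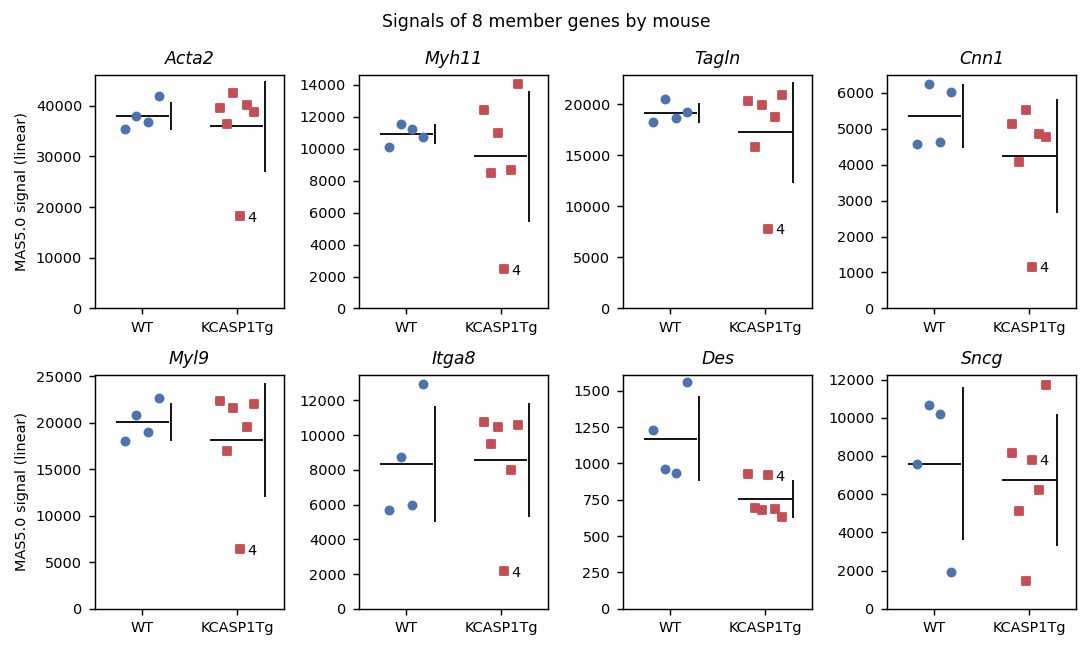
MAS5.0 signal (linear axis) of Acta2, Myh11, Tagln, Cnn1, Myl9, Itga8, Des and Sncg in each WT mouse (n = 4) and each KCASP1Tg mouse (n = 6), with the mean and SD of the signals as lines; KCASP1Tg 4 is marked 4. Its Myh11 point lies at 2453, below all others, while for Des the KCASP1Tg points, 633 to 925, lie below all WT points, 933 to 1563.

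The actin-binding proteins that sit on these filaments gave a median difference of -1.38 in KCASP1Tg 4, which was again the lowest array for all 6. Cnn1, calponin, had signals of 4574, 6235, 4618 and 6016 in WT mice and 5134, 4081, 5511, 1164, 4847 and 4769 in KCASP1Tg mice. The mean of the other KCASP1Tg mice was 4.16-fold that of KCASP1Tg 4, on the scale of log2 means, against 2.43-fold for Tagln, transgelin (SM22), and 2.17-fold for Acta2. Over all arrays the log2 fold change of Cnn1 was -0.47 (standard error 0.40, adjusted p = 0.854), and without KCASP1Tg 4 it was -0.13 (95% interval -0.44 to 0.18).
Tagln had signals of 18288, 20499, 18670 and 19235 in WT mice and 20269, 15848, 19894, 7825, 18734 and 20890 in KCASP1Tg mice. Its WT mice lay within the range of the KCASP1Tg mice. Smtn, smoothelin, a marker of contractile cells, was 516 in KCASP1Tg 4, while the other KCASP1Tg mice had 1577 to 2325 and WT mice 1427 to 1968. For Cald1, caldesmon, the log2 fold change was -0.24, and for Synpo2, an actin-bundling protein, -0.53 (adjusted p = 0.735), and without KCASP1Tg 4 these were -0.04 and -0.29. Lmod1, leiomodin, which nucleates actin filaments, ranged from 221 in KCASP1Tg 4 to 1050 in KCASP1Tg 6, both outside the WT range of 444 to 617. KCASP1Tg 2 (345) and KCASP1Tg 5 (396) were below that range too.

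The genes that control contraction followed the filaments, with a median difference of -1.29 in KCASP1Tg 4, the lowest array for all 6. Mylk, the myosin light chain kinase, had signals of 6561, 7622, 7768 and 7110 in WT mice and 7062, 5267, 7391, 2930, 6854 and 8012 in KCASP1Tg mice. The log2 fold change was -0.29 (standard error 0.26, adjusted p = 0.872), and -0.08 without KCASP1Tg 4. Ppp1r12b, a targeting subunit of myosin phosphatase, differed by -0.31 and Ppp1r14a, the phosphatase inhibitor CPI-17, by -0.15, and without that mouse the values were -0.07 and 0.08. Kinase, phosphatase subunit and phosphatase inhibitor were thus all at their lowest in the same mouse.
Mrvi1, the partner of the inositol trisphosphate receptor through which cyclic GMP lowers calcium, was 396 in KCASP1Tg 4 against 905 to 1381 on the other arrays. Hspb6, a small heat shock protein linked to relaxation, differed by -0.46 (adjusted p = 0.754), and Jph2, junctophilin, which joins the sarcoplasmic reticulum to the cell membrane, by -0.21. Without that mouse the values were -0.28 and -0.04.

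The intermediate filament genes did not follow the others in KCASP1Tg 4. Des, desmin, the muscle intermediate filament, had signals of 1227, 961, 933 and 1563 in WT mice and 925, 695, 681, 917, 689 and 633 in KCASP1Tg mice. Every KCASP1Tg mouse was below every WT mouse, and the closest pair were WT 3 and KCASP1Tg 1. Des was the only member whose groups did not overlap in this direction, and 0 members were higher without overlap. This held for 0.949% of all probe sets tested in the lower and 1.98% in the higher direction, so 1 of 67 is near the background. The log2 fold change of Des was -0.61 (standard error 0.18, 95% interval -1.01 to -0.22, adjusted p = 0.375 from limma). The two-sided exact Mann-Whitney p was 0.00952 before adjustment, the smallest that 4 against 6 mice can give, and 0.325 after it.
Without KCASP1Tg 4 the log2 fold change of Des was -0.67 (adjusted p = 0.264). Heart and skeletal muscle also express desmin. Within each genotype the 2 highest Des signals were in mice with transcripts of those muscles. These were WT 4 and WT 1, and KCASP1Tg 1 and KCASP1Tg 4. KCASP1Tg 2, with a Myh6 signal of 3101, had a Des signal of 695. All 5 mice with an Acta1 or Myh6 signal of at least 1000 were also taken out, a choice made after seeing the data. Des was then 961 and 933 in WT 2 and WT 3 against 681, 689 and 633 in KCASP1Tg 3, 5 and 6. The log2 fold change was -0.51, and the lowest limma adjusted p of any member gene in these mice was 0.806. The part of striated muscle in the Des signal was not tested. Synm, synemin, which joins desmin to the linkers, was 976 to 1519 in WT mice and 1267 to 1553 in KCASP1Tg mice, with 1327 in KCASP1Tg 4. It had the highest fold change of the 34, 0.08 (standard error 0.14, adjusted p = 0.955).

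Among transcription and signalling genes the picture was mixed. Myocd, the SRF coactivator myocardin, had signals of 374, 421, 359 and 528 in WT mice and 518, 335, 301, 151, 301 and 437 in KCASP1Tg mice. KCASP1Tg 4 was lowest, and the log2 fold change was -0.39 (standard error 0.30), or -0.17 without it. Rgs5, a brake on G protein signalling found in pericytes and arterial smooth muscle, was 6614 in KCASP1Tg 4 and highest, at 19912, in KCASP1Tg 3.
Notch3, the Notch receptor of arterial smooth muscle, was 956 to 1311 in WT mice and 961 to 1297 in KCASP1Tg mice, and the difference of -0.02 had a 95% interval from -0.31 to 0.26. Its signal in KCASP1Tg 4, 961, was above that of WT 2. Sncg, gamma-synuclein, which adipocytes and peripheral nerves also express, had a pattern of its own. It was lowest in KCASP1Tg 3 (1441) and WT 4 (1931) against 5101 to 11735 on the other arrays. These were the 2 arrays with the lowest sums of Schwann cell markers, 11871 and 10944. KCASP1Tg 2 had a sum of 12434, near that of KCASP1Tg 3, with a Sncg signal of 5101. The sum of adipocyte markers was highest in KCASP1Tg 3, at 184614. The part of nerve and fat in the Sncg signal was not tested.

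The adhesion and linker genes had a median difference of -1.1 in KCASP1Tg 4, which was the lowest array for 9 of 10. Itga8, the integrin alpha 8 chain of smooth muscle, had signals of 5708, 8717, 5989 and 12928 in WT mice and 10757, 9486, 10443, 2162, 7990 and 10556 in KCASP1Tg mice. The other KCASP1Tg mice averaged 4.53-fold the signal of KCASP1Tg 4, the largest such ratio of the 34 genes, and lay within the WT range. Its log2 fold change went from -0.05 (standard error 0.45) to 0.31 (95% interval -0.22 to 0.84) without that mouse.
Vcl, vinculin, the protein of dense plaques whose promoter is shown above, was 3340 in KCASP1Tg 4 against 5506 to 7068 on the other arrays. Flna, filamin A, was 3767 against 6826 to 11826, and Fhl1, a LIM protein with a CArG box as well, 6098 against 13321 to 19376. Actn1, alpha-actinin 1, was 4370 in KCASP1Tg 4 against 5633 to 7427 on the other arrays. Csrp1, a LIM protein of smooth muscle, was 4653 there against 6335 to 9890.
The PDZ and LIM domain genes Pdlim3, Pdlim7 and Ldb3 differed between the genotypes by -0.07, -0.41 and -0.08 on the log2 scale, and without KCASP1Tg 4 by 0.18, -0.25 and 0.16. Mcam, an adhesion molecule of smooth muscle and endothelium, was the linker not lowest in KCASP1Tg 4, with 2457 there, 2389 in KCASP1Tg 3 and 2268 in WT 4. The 4 genes with a CArG box in the window had a median difference of -1.46 in KCASP1Tg 4. The 26 with no exact match in the window, which may hold SRF sites all the same, had -1.16. These ranges overlapped, from -1.67 to -0.90 and from -2.18 to 0.54.

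For 19 of the genes several probe sets were tested, and for 6 of them (Actn1, Csrp1, Itga8, Notch3, Rgs5 and Tpm2) the probe sets differed in sign. For Actn1, Csrp1, Itga8 and Notch3 the other sign came with log2 fold changes of 0.05, 0.01, 0.07 and 0.15, and the 4 probe sets of Rgs5 lay between -0.10 and 0.06. Tpm2 was different. Its _x_at probe set had signals of 1638, 29.4, 46.6 and 75.3 in WT mice and 123, 168, 74.5, 943, 121 and 111 in KCASP1Tg mice, which gave 0.52 on the log2 scale (adjusted p = 0.969). Both high values were on the arrays with skeletal muscle Acta1, where the main probe set of the gene, was 14104 (WT 1) and at its lowest, 5468 (KCASP1Tg 4). Tpm2 is also expressed in skeletal muscle, and an _x_at probe set can bind related transcripts.
Ldb3 and Tpm1, chosen after their values were seen, gave similar cases. A second Ldb3 probe set was 872 in WT 4, 625 in WT 1, 478 in KCASP1Tg 1 and 361 in KCASP1Tg 4 against 73.0 to 184 on the other arrays, whereas the main one was lowest in KCASP1Tg 4, at 368. The main Tpm1 probe set was 11078 in WT 4, the mouse with the highest Myh6 signal, while a second one was 6358 there and 2727 in KCASP1Tg 4. The part of striated muscle in these probe sets was not tested.

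**Figure D5:**
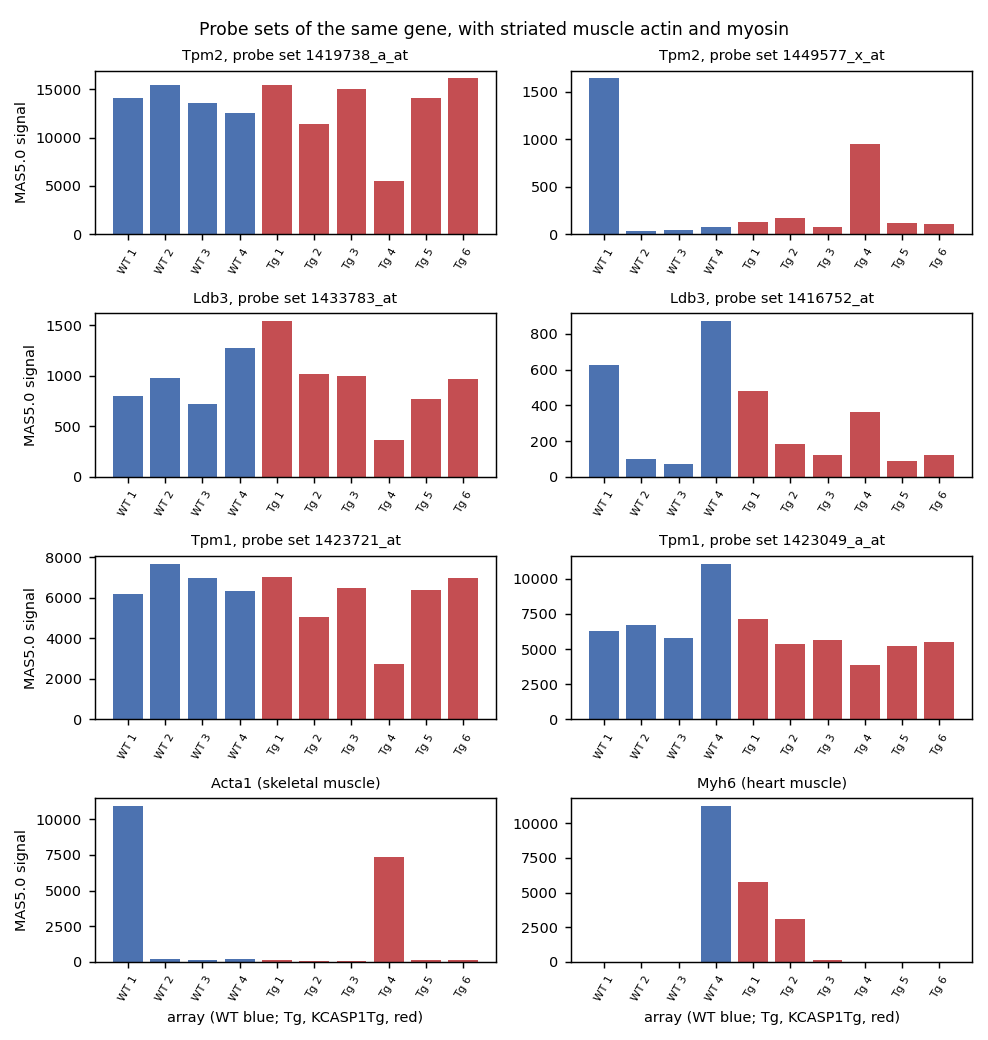
MAS5.0 signal on each array for pairs of probe sets of Tpm2, Ldb3 and Tpm1, with the striated muscle genes Acta1 and Myh6 in the lowest row (bars; WT blue, KCASP1Tg red). The _x_at probe set of Tpm2 is high in WT 1 (1638) and KCASP1Tg 4 (943), while its main probe set is lowest in KCASP1Tg 4 (5468).

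The wider contraction pathway gave the same result for the genotypes. Of 38 other genes of the contraction pathway, among them genes of calcium handling, cyclic GMP signalling and actin turnover, 33 were measured, and 0 were higher and 0 lower by limma. Of these, 10 had a positive and 23 a negative log2 fold change, with a median of -0.11, and without KCASP1Tg 4 there were 19 positive and 14 negative, with a median of 0.04. The direction of this list thus rested on 1 mouse. KCASP1Tg 4 was the lowest array for 21 of the 33. The smallest p-values belonged to Zyx, zyxin of focal adhesions, at 0.34 (standard error 0.17, adjusted p = 0.671), Ppp1r12a, the main targeting subunit of myosin phosphatase, at -0.27 (adjusted p = 0.771), and Gucy1a1, a subunit of the nitric oxide receptor guanylate cyclase, at -0.40 (adjusted p = 0.773).

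Most non-muscle and synthetic-state counterparts were on the other side of 0. Of 15 such genes 14 were measured, 0 were called, 10 had a positive and 4 a negative log2 fold change, and the median was 0.08. Without KCASP1Tg 4 there were 11 and 3, with a median of 0.11. Among the 4 negative genes were Cnn3, a non-muscle calponin, at -0.20, and Myh10, a non-muscle myosin heavy chain, at -0.16. Without KCASP1Tg 4 these values were -0.18 and -0.01. Cnn2, another non-muscle calponin, had signals of 2360, 2456, 2174 and 2200 in WT mice and 3047, 2494, 3720, 3397, 2887 and 3158 in KCASP1Tg mice. All KCASP1Tg mice lay above all WT mice, KCASP1Tg 2 by a small margin. The log2 fold change was 0.43 (standard error 0.12, adjusted p = 0.362), and 0.40 without KCASP1Tg 4.
Myh9, a non-muscle myosin heavy chain, was 5157 to 5800 in WT mice and 6215 to 10230 in KCASP1Tg mice, with a difference of 0.40 on the log2 scale (standard error 0.14, adjusted p = 0.496). Lgals3, galectin-3, which macrophages express as well, was 1047 to 1548 in WT mice and 1579 to 3742 in KCASP1Tg mice, which gave 0.59 on the log2 scale (standard error 0.24, adjusted p = 0.568). With Tpm3, these were 4 of 14 genes whose KCASP1Tg mice all lay above the WT mice, as did 282 of all 12295 genes and 1.98% of all probe sets tested. The highest Myh9 and Lgals3 values were those of KCASP1Tg 4, where the neutrophil markers were highest, and leukocytes express both genes. Without that mouse the log2 fold changes of Myh9 and Lgals3 were 0.30 and 0.40 (limma's adjusted p = 0.355 and 0.398). Neutrophil marker sums were at least 7021 in every KCASP1Tg mouse and at most 677 in WT mice. The part of leukocytes in the values of Cnn2, Myh9, Lgals3 and Tpm3 was not tested. Vim and Actb, shared by most cells, had log2 fold changes of 0.01 and 0.12. Whether the log2 fold changes of Cnn2 and Myh9 differ from those of Cnn1 and Myh11 was not tested.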

How the data were processed

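Abdominal aorta of 4 WT and 6 KCASP1Tg mice was measured with 1 array per mouse. The authors derived the intensity (signal) of each probe set with MAS5.0, with global scaling that sets the trimmed mean of an array at 500, and deposited these intensities on a linear scale. The median signal was 128.6 to 155.9. Detection calls were not used here.

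A floor of 1 was applied before the log2 step. Probe sets that reached 100 on 4 arrays or more were tested by genotype with limma 3.58.1 (R 4.3.3), with Benjamini-Hochberg adjustment over 26242 probe sets, and called at an adjusted p under 0.05. The two-sided exact Mann-Whitney test, named in the study's statistics, was an alternative. All 34 genes are named, by the probe set with the highest mean signal, and other probe sets where their sign differs. From the pathway and non-muscle lists the 3 genes with the smallest p are named, with some others of the non-muscle list. From marker lists the brightest gene and those a result turns on are named. Of 45037 probe sets, 34945 had 1 gene symbol. Members and lists were chosen with earlier results of these data known. Steps were tested on simulated data. Alternatives covered the floor, pseudocount, signal filter, scaling, variance model, array weights, replicate number and each array left out. Promoters are from RefSeq (GRCm38.p6). Some listed genes had no probe set of 1 symbol and were not analysed here. Columns of the table all matched a sample.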

Additional observations from a re-analysis of the deposited data

Results flagged for a closer look

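For 16 of the 34 genes the lowest KCASP1Tg value lay far from the others in its group, judged by its gap to the nearest value as a share of the group's range, and each time it was that of KCASP1Tg 4. Its log2 signal was 14.15 for Acta2, 11.26 for Myh11, 12.93 for Tagln, 10.18 for Cnn1, 9.01 for Smtn, 12.65 for Myl9, 12.42 for Tpm2 and 12.46 for Cald1. It was 9.66 for Synpo2, 9.61 for Ppp1r12b, 11.71 for Vcl, 9.29 for Pdlim3, 11.08 for Itga8, 8.72 for Hspb6, 8.63 for Mrvi1 and 12.57 for Fhl1. In WT mice the log2 signal of Lmod1 in WT 1, 8.79, lay far below the other WT mice. These are 17 of 68 groups checked, where chance gives about 1 in 20, and values of 1 mouse are not independent of each other.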

How the results depend on the processing

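The number of member probe sets called was 0 in either direction under every alternative run, and the adjusted p of the member genes ranged from 0.153 to 1.0. Over all probe sets, the 18 called higher became 204 with array weights and 0 with the exact Mann-Whitney test, with the replicate block over numbers 1 to 4, or without the 5 arrays with heart or skeletal muscle transcripts (chosen after seeing the data), and 10 to 61 with 1 array left out (10 without KCASP1Tg 1, 61 without KCASP1Tg 4). The 0 called lower became 1 with a floor of 16 or quantile normalization, 2 with a pseudocount of 50, no filter or median centring, 3 with a filter of 200 or an intensity trend, 63 with array weights, and 0 to 8 with 1 array left out. The median log2 fold change of the member genes was -0.36 with the replicate block, -0.08 with array weights and -0.29 to -0.03 with 1 array left out. The 32 negative genes became 18 without the 5 arrays with striated muscle transcripts and 19 to 33 with 1 array left out (19 without KCASP1Tg 4).

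Signs of single genes turned as follows. With array weights, which gave KCASP1Tg 4 the lowest weight (0.281), the log2 fold change was 0.037 for Acta2, 0.067 for Smtn, 0.057 for Actn1, 0.092 for Pdlim3, 0.255 for Ldb3, 0.376 for Itga8, 0.009 for Jph2 and 0.135 for Fhl1. Without the 5 arrays it was 0.115 for Acta2, 0.019 for Tagln, 0.128 for Smtn, 0.082 for Myl9, 0.056 for Tpm2, 0.073 for Cald1, -0.080 for Synm, 0.109 for Actn1, 0.046 for Csrp1, 0.198 for Pdlim3, 0.108 for Ldb3, 0.408 for Itga8, 0.171 for Notch3, 0.040 for Hspb6, 0.101 for Jph2 and 0.247 for Fhl1. Rgs5 was -0.031 with quantile normalization and -0.009 with the replicate block. When all probe sets of a gene were averaged, Itga8 was 0.012, Rgs5 -0.008 and Notch3 0.064. With 1 array left out the ranges were -0.190 to 0.055 for Acta2, -0.098 to 0.057 for Actn1, -0.133 to 0.085 for Csrp1, -0.196 to 0.130 for Fhl1, -0.265 to 0.065 for Flna, -0.205 to 0.313 for Itga8, -0.249 to 0.165 for Ldb3, -0.336 to 0.025 for Myl9, -0.122 to 0.029 for Notch3, -0.176 to 0.180 for Pdlim3, -0.244 to 0.077 for Ppp1r14a, -0.101 to 0.217 for Rgs5, -0.296 to 0.138 for Smtn, -0.721 to 0.245 for Sncg, -0.056 to 0.156 for Synm and -0.265 to 0.047 for Tpm2. The cause of these turns was not tested. The values gave no sign that replicate numbers pair the mice (correlations of deviations 0.108, -0.314, -0.435 and -0.326 for numbers 1 to 4). Such correlations cannot exclude a pairing, since transcripts of other tissues in single mice also enter them.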
